A study of Mus musculus with 16 samples.

Results

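The genes described here are 38 type I interferon-stimulated genes of the mouse, a list given by symbol and matched to the Ensembl identifiers of the deposited table. All 38 were found among its 30153 genes. Type I interferons bind the receptor chains Ifnar1 and Ifnar2, and the receptor's kinases then activate a complex that includes Stat2 and Irf9 and binds an interferon-stimulated response element (ISRE) in the promoters of these genes. Interferon gamma acts through its own receptor, Jak2 and the factor Irf1, and it strongly induces a subset of the same genes, above all GTPases that attack intracellular microbes. In the heart, this response is known from viral myocarditis and from the tissue around an infarct.

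The levels were measured by RNA sequencing of polyadenylated RNA from 16 mouse hearts in 4 groups. Of these, 5 were from aged Hap-I mice fed a western diet, 4 from aged Hap-I mice with no diet named, 4 from adult Hap-I mice fed a western diet and 3 from adult C57 mice with no diet named. The strain of every mouse is given as C57/BL6, and Hap-I mice carry in addition haplotype I of the gene for the human angiotensin type 1 receptor. By the sample labels, no group is Hap-I, adult and without the diet. The 4 adult Hap-I samples are labelled as fed the western diet, whereas the design text names that group without a diet. Grouping here rests on the sample labels, and this conflict bears on each result for that group. The promoter and founder line of the transgene, the age in months, the sex, the litter and the composition of the diet are not given in the sources used here. The design text counts animals, so each heart was taken as 1 animal.

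Values are TPM, transcript abundances corrected for gene length by the authors, divided here by a size factor per library and called scaled TPM. TPM keep no sequencing depth, so the depth is unknown and all errors are spreads between hearts. The libraries held 9553 to 11175 genes at 1 TPM or more. Ventricular cardiomyocyte markers summed to 35614 to 44087 scaled TPM in aged Hap-I western-diet hearts, 38196 to 48626 in aged Hap-I hearts, 35187 to 45698 in adult Hap-I western-diet hearts and 46765 to 51349 in C57 hearts. The defining markers of the labelled tissue were thus abundant in each. Y-linked transcripts were near 0 (at most 0.494 TPM in sum) in 5 libraries, aged Hap-I western-diet replicates 1, 2 and 3 and adult Hap-I western-diet replicates 1 and 2, and reached at least 19.3 TPM in the other 11. A gene was tested if it reached 1 TPM in at least 3 libraries, which 11415 genes and 35 of the 38 interferon-stimulated genes did. Oas3, Mx1 and Rtp4 stayed below that level and were not tested, and Herc6 passed through aged Hap-I western-diet hearts alone. Fold changes are from 1 limma model of log2(scaled TPM + 1) and come out too small for genes at low TPM. Calls rest on an adjusted p under 0.05 over all 11415 genes.

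The sequence that gives the response element its name was looked for in the promoters. RefSeq promoter windows of GRCm38.p6, from 250 bases before to 50 bases after the gene start, were matched for 27 of the 38 genes. The word GAAANNGAAA or its reverse complement TTTCNNTTTC, a core of the ISRE, lay in a window of 15 of these 27 genes, against 3.44% of all 32851 windows of the same length. The 5 windows below belong to 3 genes whose levels set hearts of 1 group apart (Isg15, Ifit3 and Oas1a) and to 2 GTPases that fell in Hap-I hearts (Gbp2 and Igtp). Each is written 5′ to 3′ on the gene's strand, and capitals mark the ISRE-like words, some of which overlap one another.
Isg15: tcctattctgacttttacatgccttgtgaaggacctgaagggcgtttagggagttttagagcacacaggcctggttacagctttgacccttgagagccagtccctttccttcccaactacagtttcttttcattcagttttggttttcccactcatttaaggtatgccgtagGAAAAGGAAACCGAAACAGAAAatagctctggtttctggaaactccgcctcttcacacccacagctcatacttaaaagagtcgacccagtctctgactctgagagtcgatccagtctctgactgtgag
Ifit3: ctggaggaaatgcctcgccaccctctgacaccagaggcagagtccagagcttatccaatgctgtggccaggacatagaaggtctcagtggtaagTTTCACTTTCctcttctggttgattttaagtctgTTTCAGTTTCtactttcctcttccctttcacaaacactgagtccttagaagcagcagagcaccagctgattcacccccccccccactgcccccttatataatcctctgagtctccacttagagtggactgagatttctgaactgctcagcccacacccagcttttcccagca
Oas1a: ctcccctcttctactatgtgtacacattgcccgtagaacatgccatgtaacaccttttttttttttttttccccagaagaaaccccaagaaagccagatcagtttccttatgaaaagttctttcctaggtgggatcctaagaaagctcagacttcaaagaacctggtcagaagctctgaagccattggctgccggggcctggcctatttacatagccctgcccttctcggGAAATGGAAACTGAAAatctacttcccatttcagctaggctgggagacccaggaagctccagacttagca
Gbp2: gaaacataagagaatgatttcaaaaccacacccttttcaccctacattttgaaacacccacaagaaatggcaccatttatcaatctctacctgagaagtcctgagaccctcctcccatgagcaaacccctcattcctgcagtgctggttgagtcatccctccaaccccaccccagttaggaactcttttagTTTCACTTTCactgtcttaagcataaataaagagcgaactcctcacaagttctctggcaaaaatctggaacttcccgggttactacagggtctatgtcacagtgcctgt
Igtp: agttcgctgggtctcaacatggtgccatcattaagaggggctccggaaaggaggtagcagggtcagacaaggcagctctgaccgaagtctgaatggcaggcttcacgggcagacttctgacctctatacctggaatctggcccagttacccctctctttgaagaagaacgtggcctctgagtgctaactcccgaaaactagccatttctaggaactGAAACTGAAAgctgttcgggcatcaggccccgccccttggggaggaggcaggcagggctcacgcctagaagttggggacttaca
These windows lie at chr4:156200769-156201068 on the minus strand for Isg15, chr19:34583279-34583578 on the plus strand for Ifit3, chr5:120907476-120907775 on the minus strand for Oas1a, chr3:142620413-142620712 on the plus strand for Gbp2 and chr11:58199306-58199605 on the plus strand for Igtp. The words of Isg15 began 78, 72 and 66 bases upstream of its start, those of Ifit3 156 and 122 bases upstream, those of Oas1a 20 and 14 bases upstream, and the single words of Gbp2 and Igtp 59 and 34 bases upstream. The windows of Irf7, Ifi44, Xaf1 and Cmpk2, among others, held no ISRE-like word, which says only that these letters are not in that window.

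Most of the list had its highest group mean in aged Hap-I western-diet hearts and its lowest and most even levels in aged Hap-I hearts without the diet. The mean was highest in aged Hap-I western-diet hearts for 33 of 38 genes, in C57 hearts for Gbp2, Iigp1, Igtp and Ifi35, and in adult Hap-I western-diet hearts for Rtp4. Summed over the 38 genes, levels were 277, 195, 245, 560.2 and 837 scaled TPM in aged Hap-I western-diet replicates 1 to 5, 170.0, 156, 182 and 168 in aged Hap-I replicates 1 to 4, 226, 324, 242 and 280.3 in adult Hap-I western-diet replicates 1 to 4 and 279.7, 223 and 408 in C57 replicates 1 to 3. The high mean of the first group thus rests on replicates 4 and 5, the 2 highest sums of all 16 hearts, while replicate 2 of the same group lay below every adult heart. The values of a group are given in this replicate order throughout. In bulk tissue, fewer cells of a type and less RNA per cell cannot be told apart.

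**Figure D1:**
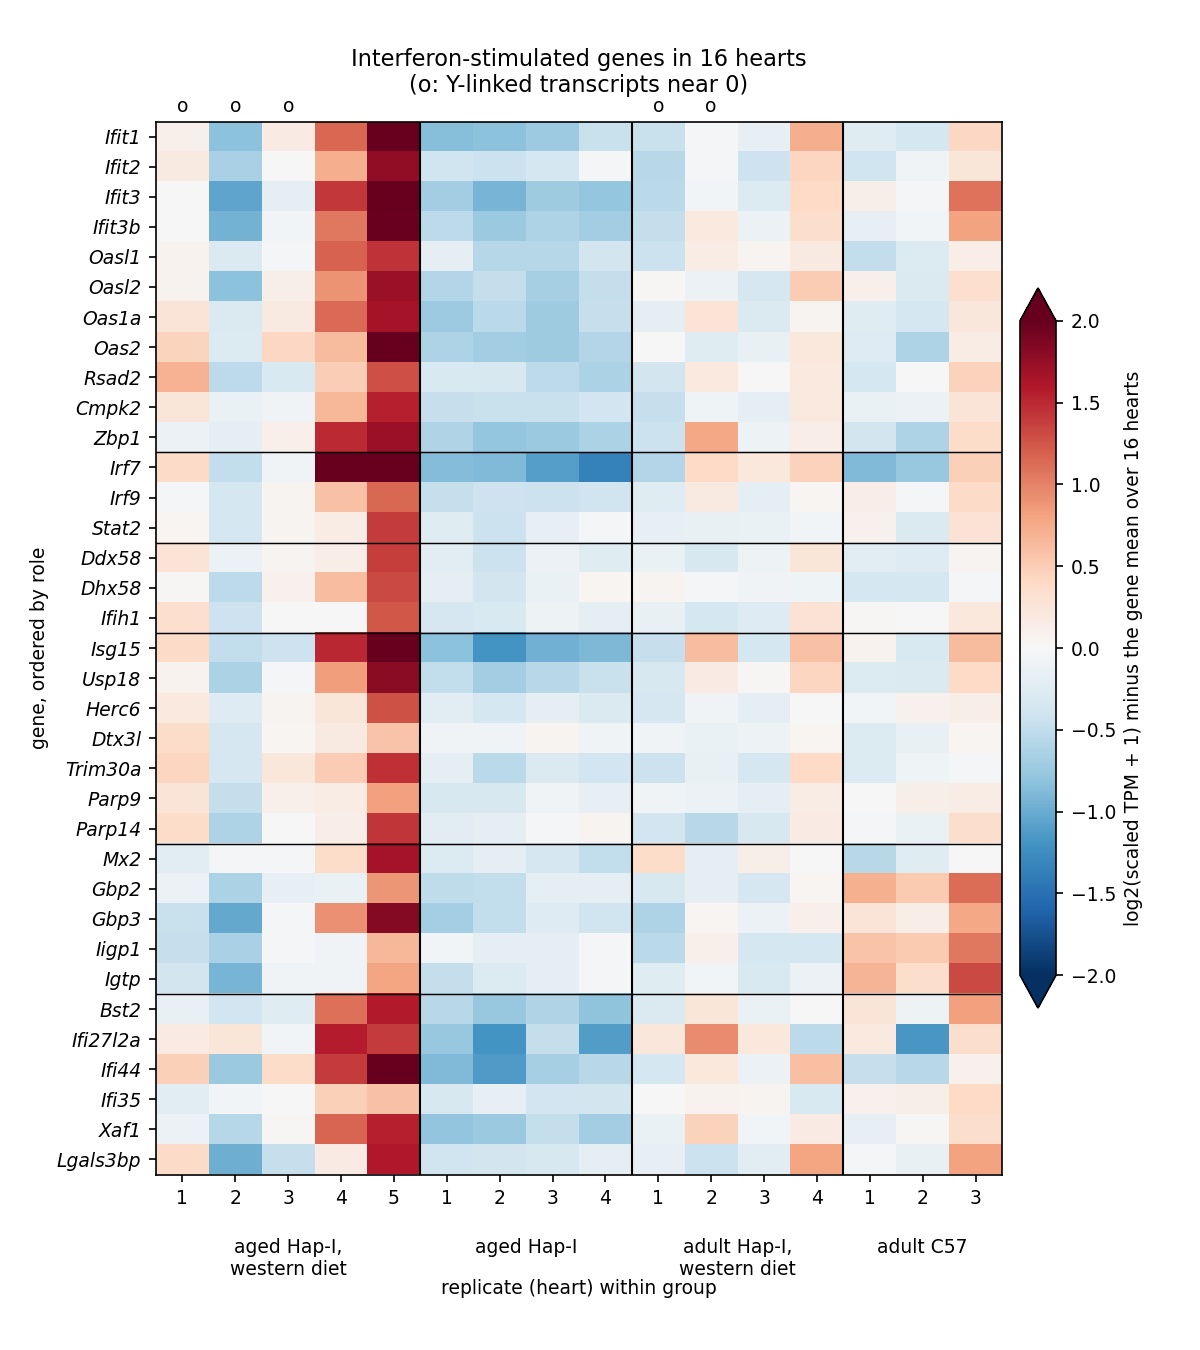
Levels of the interferon-stimulated genes in each of 16 hearts, as log2(scaled TPM + 1) minus the gene's mean over all hearts, with genes in rows ordered by role and hearts in columns by group. Aged Hap-I western-diet replicates 4 and 5 are high for most genes, whereas the GTPases Gbp2, Iigp1 and Igtp are highest in C57 hearts, and small circles above a column mark the 5 libraries with Y-linked transcripts near 0.

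The transcription factors included Irf7, which had the largest SD in aged Hap-I western-diet hearts on the log2(scaled TPM + 1) scale. Irf7, which is induced by interferon and in turn drives interferon genes (ENSMUSG00000025498, chr7:141262706-141266481 in GRCm38), stood at 12.7, 6.54, 9.05, 49.7 and 72.9 scaled TPM in aged Hap-I western-diet hearts, 4.79, 4.699, 3.93 and 3.13 in aged Hap-I hearts, 6.01, 12.9, 11.2 and 13.6 in adult Hap-I western-diet hearts and 4.704, 5.23 and 13.8 in adult C57 hearts. Its values in aged Hap-I western-diet replicates 4 and 5 were the highest of all 16 hearts, and the other 3 hearts of that group overlapped with adult hearts. Isg15, a ubiquitin-like protein that is induced by interferon and attached to other proteins by its own enzymes (ENSMUSG00000035692, chr4:156199424-156200818), stood at 12.1, 6.16, 6.58, 27.8 and 41.7 scaled TPM in aged Hap-I western-diet hearts, 4.72, 3.42, 4.18 and 4.404 in aged Hap-I hearts, 6.29, 14.5, 6.93 and 14.2 in adult Hap-I western-diet hearts and 9.62, 7.18 and 14.6 in adult C57 hearts. Its pattern was the same at the top, and all 4 aged Hap-I hearts lay below every other heart. Irf9, the DNA-binding part of the complex with Stat2, was at 6.15, 4.71, 6.603, 9.96 and 15.2 scaled TPM in aged Hap-I western-diet hearts, 4.32, 4.47, 4.43 and 4.51 in aged Hap-I hearts, 5.19, 7.27, 5.34 and 6.49 in adult Hap-I western-diet hearts and 7.01, 6.08 and 8.496 in adult C57 hearts. Its aged Hap-I hearts lay within 4.32 to 4.51 scaled TPM, below all hearts of the other 3 groups. Stat2, its partner, was at 3.18, 2.21, 3.26, 3.54 and 9.8 scaled TPM in aged Hap-I western-diet hearts, where replicate 5 alone stood high, and at 2.03 to 3.03 in aged Hap-I, 2.62 to 2.91 in adult Hap-I western-diet and 2.34 to 3.97 in C57 hearts.

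In the antiviral effectors Ifit3, Oas2, Oas1a and Zbp1, the same 2 aged Hap-I western-diet hearts stood highest in their group. Ifit3, of the family that captures viral RNA (ENSMUSG00000074896, chr19:34583531-34588731), stood at 9.39, 4.03, 8.24, 26.9 and 49.6 scaled TPM in aged Hap-I western-diet hearts, 5.45, 4.51, 5.38 and 5.11 in aged Hap-I hearts, 6.22, 9.14, 7.69 and 12.8 in adult Hap-I western-diet hearts and 10.3, 9.33 and 21.3 in adult C57 hearts. The 31-base words of Ifit3 are 61.8% shared with its neighbour Ifit3b, so reads of the 2 genes may be split by estimate. Oas2, which makes the messenger that activates the ribonuclease RNase L (ENSMUSG00000032690, chr5:120730333-120749853), stood at 3.28, 1.61, 3.203, 3.91 and 14.5 scaled TPM in aged Hap-I western-diet hearts, 1.06, 0.953, 0.937 and 1.09 in aged Hap-I hearts, 2.15, 1.68, 1.85 and 2.66 in adult Hap-I western-diet hearts and 1.66, 1.06 and 2.502 in adult C57 hearts. Only replicate 5 of the aged Hap-I western-diet hearts was far from the rest, while all 4 aged Hap-I hearts were below all 5 of that group. Oas1a, an enzyme of the same family that shares 68.8% of its words, mostly with Oas1g, was at 3.1, 1.82, 2.89, 6.57 and 9.88 scaled TPM in aged Hap-I western-diet hearts, 1.08, 1.36, 1.11 and 1.503 in aged Hap-I hearts, 2.05, 3.18, 1.81 and 2.58 in adult Hap-I western-diet hearts and 1.905, 1.696 and 3.04 in C57 hearts. Zbp1, a sensor of left-handed nucleic acids that can start necroptosis, was at 1.44, 1.301, 1.83, 6.44 and 7.71 scaled TPM in aged Hap-I western-diet hearts and 0.735, 0.536, 0.581 and 0.694 in aged Hap-I hearts. These 2 groups did not overlap for Oas1a, Oas2, Zbp1 or the mitochondrial nucleotide kinase Cmpk2. Oas3 reached at most 0.778 scaled TPM, in aged Hap-I western-diet replicate 5.

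Among the membrane, secreted and other induced proteins were the most abundant members per unit of length. Ifi27l2a, a small interferon-induced protein, stood at 60.8, 64.5, 51.9, 163 and 145 scaled TPM in aged Hap-I western-diet hearts, 31.8, 23.2, 38.5 and 24.3 in aged Hap-I hearts, 63.9, 105, 62.6 and 37.3 in adult Hap-I western-diet hearts and 61.9, 23.7 and 69.6 in adult C57 hearts. It is the 1 tested gene of the list whose highest aged Hap-I western-diet heart was replicate 4 and not replicate 5. Bst2, also called tetherin, which holds budding viruses at the cell surface, was at 26.96, 22.8, 25.2, 65.5 and 91.9 scaled TPM in aged Hap-I western-diet hearts, 20.1, 17.3, 19.3 and 16.6 in aged Hap-I hearts, 24.3, 35.5, 27.3 and 29.8 in adult Hap-I western-diet hearts and 36.2, 27.9 and 53.9 in adult C57 hearts. Ifi44, an antiviral protein of the cytosol, was at 3.305, 0.8499, 3.02, 7.21 and 14.5 scaled TPM in aged Hap-I western-diet hearts and 0.685, 0.415, 0.965 and 1.11 in aged Hap-I hearts, with replicate 2 of the western-diet hearts inside the range of the hearts without the diet. The cytosolic RNA sensors Ddx58 (RIG-I), Ifih1 (MDA5) and Dhx58 (LGP2) were lower, and aged Hap-I western-diet replicate 5 was at 11.2 scaled TPM for Ddx58, against 2.46 to 3.32 in aged Hap-I hearts.

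**Figure D2:**
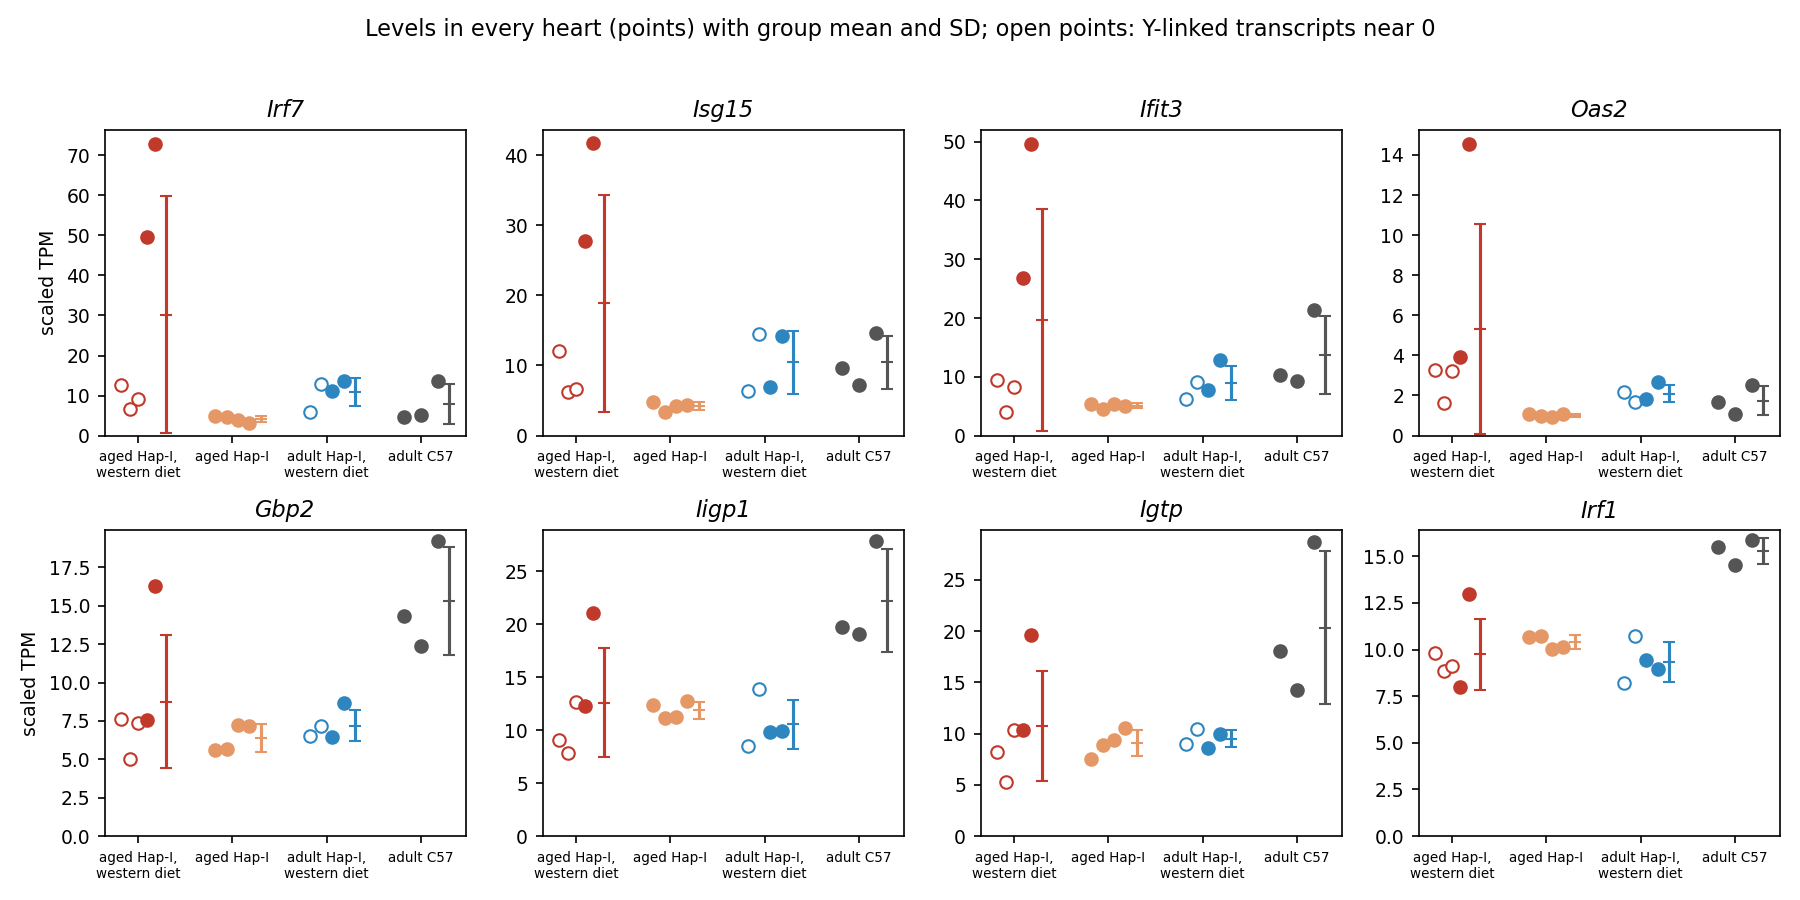
Scaled TPM (vertical axis, starting at 0) of 7 interferon-stimulated genes and of Irf1, which is not on the list, in every heart of the 4 groups, with the group mean and SD beside the points and open points for libraries with Y-linked transcripts near 0. Irf7, Isg15, Ifit3 and Oas2 are highest in 1 or 2 aged Hap-I western-diet hearts, whereas Gbp2, Iigp1, Igtp and Irf1 are higher in C57 hearts than in nearly all Hap-I hearts.

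The spread between hearts was itself uneven. The SD of log2(scaled TPM + 1) in aged Hap-I western-diet hearts had a median of 0.77 over the 35 tested genes, against 0.20 over all tested genes, and 33 of the 35 lay above the 90th percentile of all genes in that group. In aged Hap-I hearts the median was 0.13 against 0.12 over all genes, in adult Hap-I western-diet hearts 0.27 against 0.18, and in C57 hearts 0.31 against 0.14. Irf7 had the largest SD in aged Hap-I western-diet hearts, 1.47, and Dtx3l, a ubiquitin ligase, the smallest, 0.35. Across the 5 aged Hap-I western-diet hearts, replicate 5 was the highest for 34 of 35 genes, where it was the highest for 23.5% of all genes, and replicate 2 was the lowest for 32, against 17.4% of all genes. C57 replicate 3 was the highest of its group for 35 of 35, against 31.6% of all genes. Over all 16 hearts, aged Hap-I western-diet replicate 5 was the highest for 31 genes, C57 replicate 3 for 3 and aged Hap-I western-diet replicate 4 for 1.

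Set against the mean of the 4 aged Hap-I hearts, aged Hap-I western-diet replicate 5 had a median ratio of 5.23 over the 35 genes, from 1.72 for Dtx3l to 18.3 for Ifi44, with 32 genes above 2-fold. Replicate 4 had a median ratio of 2.66, with 24 genes above 2-fold and Irf7 the largest at 12. The median ratio was 1.70 in replicate 1, 0.929 in replicate 2 and 1.49 in replicate 3, and 2.22 in C57 replicate 3. The 5 western-diet hearts of aged mice therefore spanned from the level of hearts without the diet to several times that level.

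**Figure D3:**
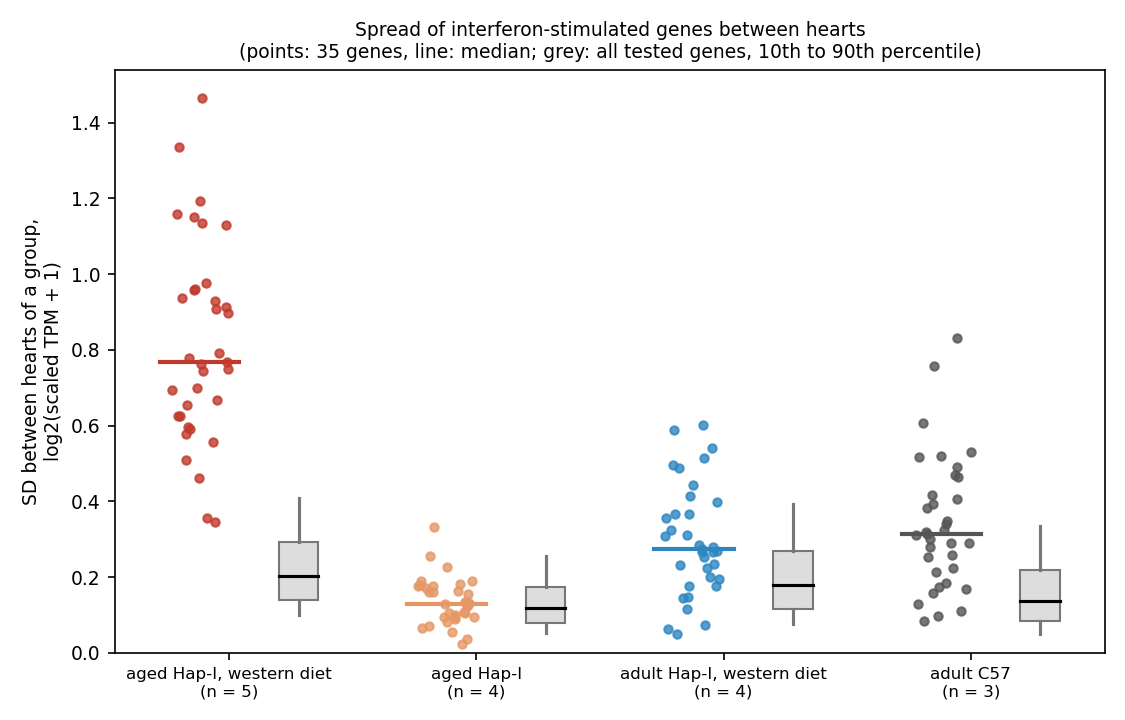
SD between hearts of log2(scaled TPM + 1) for each of 35 tested interferon-stimulated genes (points, with their median as a coloured line) beside all tested genes (grey box from the lower to the upper quartile, whiskers from the 10th to the 90th percentile, black line at the median) in the 4 groups. The genes' median lies at 0.77 in aged Hap-I western-diet hearts, against 0.20 over all genes, and at 0.13 in aged Hap-I hearts, against 0.12.

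The 2 high hearts differ from the other 3 of their group in further respects. Replicates 4 and 5 are the 2 aged Hap-I western-diet hearts with Y-linked transcripts, so within that group sex and the level of these genes cannot be told apart. They are also the 2 with the largest share of TPM on mitochondrial genes, 43.4% and 45.9%, against 37.2% to 38.99% in replicates 1 to 3. That share was 34.6% to 36.5% in aged Hap-I hearts, 38.7% to 46.1% in adult Hap-I western-diet hearts and 31.1% to 40.3% in C57 hearts, and its part in the levels was not tested. In adult Hap-I western-diet hearts, Irf7 was at 6.01 and 12.9 scaled TPM in replicates 1 and 2, where Y-linked transcripts were near 0, and at 11.2 and 13.6 in replicates 3 and 4, where they were present. Replicate 1 was the lowest of the 4, and 2 hearts a side allow no order to be read. Macrophage markers summed to 265, 224, 187, 258 and 195 scaled TPM in aged Hap-I western-diet hearts, 204, 202, 211 and 189 in aged Hap-I hearts, 183, 245, 237 and 197 in adult Hap-I western-diet hearts and 219, 193 and 334 in C57 hearts. Lyz2 and the C1q genes make up most of these sums. Of the 12 markers taken singly, aged Hap-I western-diet replicate 5 was the highest of its group for 2, Ccr2 and Fcgr1, second for 3 and lowest for 2, and replicate 1 was the highest for 6. C57 replicate 3 had the highest sum of all hearts and was the highest of its group for all 12. The part of macrophages in the levels of the interferon-stimulated genes was not tested. None of the 12 tested macrophage markers or the 3 tested neutrophil markers was called in any of the 6 comparisons in limma. Neutrophil markers summed to 8.11, 41.1, 3.98, 28.5 and 7.79 scaled TPM in aged Hap-I western-diet hearts, 3.47 to 7.54 in aged Hap-I, 6.62 to 64.1 in adult Hap-I western-diet and 2.29 to 9.43 in C57 hearts. In the first group they were highest in replicate 2, the heart with the lowest levels of the interferon-stimulated genes, and next highest in replicate 4, 1 of the 2 high hearts. The part of neutrophils in these levels was not tested. Of the markers of plasmacytoid dendritic cells, which are strong producers of type I interferon, Siglech was at or below 0.290 scaled TPM in every heart and Ccr9 at or below 0.0973, and their list summed to 8.199 to 14.4 in aged Hap-I western-diet, 9.76 to 11.3 in aged Hap-I, 6.88 to 9.06 in adult Hap-I western-diet and 7.33 to 8.86 in C57 hearts, nearly all of it Tcf4, which many cell types express. Of the interferon genes, Ifna4 and Ifnl3 were listed at 0 in all 16 hearts, Ifnb1 reached 0.0693 and Ifng 0.129 scaled TPM. A listed 0 can be a failed estimate and is not shown to mean no expression. Tyk2, a widely used kinase of the type I receptor, was also listed at 0 in hearts of each group and reached at most 0.244 scaled TPM.

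The first comparison set aged Hap-I hearts with the western diet against those without it (n = 5 with the diet, n = 4 without). Y-linked transcripts were near 0 in western-diet replicates 1, 2 and 3 and present in all hearts without the diet. The diet and the absence of these transcripts can thus not be fully told apart here. All 35 tested genes had positive log2 fold changes, with a median of 0.78, against 0.00 over all tested genes, yet 0 of the 35 were called in limma, where 0.0788% of all genes were called higher and 0.0876% lower. At an unadjusted p under 0.05, 24 of 35 were higher and 0 lower, against 7.81% and 8.1% of all genes. In 9 of the 35 every western-diet heart lay above every heart without the diet and in 0 below, against 3.24% and 3.9% of all genes. Herc6 entered the test through western-diet hearts alone and so had to be higher there. Without it the median over 34 genes was 0.79, and 23 were higher at an unadjusted p under 0.05. Irf7 averaged 30.2 ± 29.6 scaled TPM with the diet and 4.14 ± 0.778 without it (SD), a log2 fold change of 2.03 ± 0.56 (SE, adjusted p = 0.107). Oas1a had 1.20 ± 0.30 and Ifi27l2a 1.55 ± 0.39 (adjusted p = 0.082 for both), Oas2 1.35 ± 0.35 (adjusted p = 0.0901), Ifi44 1.57 ± 0.43 (adjusted p = 0.107) and Isg15 1.58 ± 0.45 (adjusted p = 0.117), and none of these 6 passed. The GTPases Iigp1 and Igtp stood lowest, at log2 fold changes of 0.01 and 0.12, while the highest of the 5 tested GTPases was at 0.71.

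By role, the 11 tested antiviral effectors had a median log2 fold change of 1.06 and 10 unadjusted p under 0.05. The 6 tested membrane, secreted and other proteins had 1.08 and 5. The 7 genes that take in the Isg15 system, ubiquitin ligases, Parp9 and Parp14 had 0.56 and 5. The 3 transcription factors had 0.71 and 2, the 3 RNA sensors 0.47 and 1, and the 5 tested GTPases 0.31 and 1. Without aged Hap-I western-diet replicate 5 the median over the 35 was 0.54 and 1 gene was called, Oas2 (adjusted p = 0.0368). Without replicates 4 and 5 together, chosen after their values were seen, the median was 0.32, with 31 positive values, and 0 were called. Among the 11 libraries with Y-linked transcripts, where replicates 4 and 5 alone stand for the diet, the median was 1.54 and 23 genes rose, against 0.937% of all genes. With absent Y-linked transcripts as a covariate 12 rose, against 0.298% of all genes. This covariate varies only within the western-diet groups, and in the aged one replicates 4 and 5 alone have the transcripts. The fit thus cannot separate these transcripts from anything else that sets those hearts apart.

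The second comparison set aged against adult Hap-I hearts (n = 5 and 4), all labelled as fed the western diet. The 35 genes had positive log2 fold changes with a median of 0.42, against -0.01 over all genes, and 0 were called in limma, where 1.67% of all genes were called higher and 0.718% lower. At an unadjusted p under 0.05, 3 were higher and 0 lower, against 10.6% and 9.06% of all genes, and the groups overlapped for all 35, where 3.31% of all genes lay wholly higher and 3% wholly lower. The 3 were Oas2 (log2 fold change 0.75 ± 0.35, adjusted p = 0.25), the nucleotide kinase Cmpk2 (0.59 ± 0.26, adjusted p = 0.224) and Trim30a, a restrainer of inflammatory signalling (0.59 ± 0.26, adjusted p = 0.219). Herc6 entered the test through the aged hearts of this comparison alone, and without it the median over 34 genes was 0.41. The median over the 35 was 0.12 without aged Hap-I western-diet replicate 5 and -0.09 without replicates 4 and 5 together. It was 1.10 in the libraries with Y-linked transcripts (2 against 2 hearts), where Oas1a and Xaf1 rose, against 0.0613% of all genes, and -0.05 in those without (3 against 2 hearts), where 16 of 35 values were positive. The direction thus depended on the hearts compared.

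The third comparison placed aged Hap-I hearts beside adult Hap-I western-diet hearts (n = 4 each), so age and, by the labels, diet differed together. Y-linked transcripts were present in all 4 aged hearts and near 0 in adult replicates 1 and 2. The median log2 fold change was -0.37, against 0.00 over all genes, 32 of 35 values were negative, and 0 genes were called in limma, where 1.25% of all genes were called higher and 0.885% lower. At an unadjusted p under 0.05, 0 were higher and 3 lower, against 11.6% and 9.99% of all genes. In 15 of 35 every aged heart lay below every adult heart and in 0 above, against 7.6% and 8.39% of all genes. Isg15 averaged 4.18 ± 0.555 scaled TPM in aged and 10.5 ± 4.47 in adult hearts (SD; log2 fold change -1.07 ± 0.47, adjusted p = 0.209). Ifi27l2a had -1.10 ± 0.41 (adjusted p = 0.146) and Xaf1, a binder of the apoptosis inhibitor XIAP, -0.78 ± 0.35 (adjusted p = 0.21). None passed in the model of all 4 groups. With only these 2 groups in the model 6 genes fell, Irf7, Oas1a, Oas2, Bst2, Ifi44 and Xaf1, where 1.48% of all genes fell and 2.22% rose. Without scaling, where all genes shifted by 0.27, the median was -0.08.

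The remaining comparisons set each Hap-I group against the same 3 adult C57 hearts, so they share those hearts and are not independent of one another. Diet, age and genotype differ together in the first, age and genotype in the second, and genotype and, by the labels, diet in the third. The genes that fell were GTPases of the host defence against intracellular parasites and bacteria: Gbp2, a guanylate-binding protein (ENSMUSG00000028270, chr3:142620602-142638008), and Iigp1 and Igtp (ENSMUSG00000078853, chr11:58199556-58207591), immunity-related GTPases that act at the membrane of a parasite's vacuole. Gbp2 stood at 7.61, 5.01, 7.38, 7.53 and 16.3 scaled TPM in aged Hap-I western-diet hearts, 5.58, 5.67, 7.22 and 7.16 in aged Hap-I hearts, 6.51, 7.19, 6.42 and 8.66 in adult Hap-I western-diet hearts and 14.3, 12.4 and 19.2 in adult C57 hearts. Iigp1 stood at 9.07, 7.86, 12.7, 12.3 and 21.1 scaled TPM in aged Hap-I western-diet hearts, 12.4, 11.2, 11.2 and 12.7 in aged Hap-I hearts, 8.54, 13.9, 9.87 and 9.92 in adult Hap-I western-diet hearts and 19.8, 19.1 and 27.9 in adult C57 hearts. Igtp stood at 8.24, 5.23, 10.4, 10.4 and 19.6 scaled TPM in aged Hap-I western-diet hearts, 7.53, 8.85, 9.35 and 10.6 in aged Hap-I hearts, 9.002, 10.4, 8.61 and 9.96 in adult Hap-I western-diet hearts and 18.1, 14.3 and 28.7 in adult C57 hearts. For each of the 3, every aged Hap-I heart and every adult Hap-I western-diet heart lay below every C57 heart, and of the aged Hap-I western-diet hearts only replicate 5 reached the C57 range. Of the words of Igtp, 15.9% are shared with Irgm2, so that part of its level is uncertain.

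In aged Hap-I western-diet hearts, 3 of 35 genes fell and 0 rose against C57, where 9.57% of all genes fell and 12.3% rose. Gbp2 fell by 0.81 on the log2 scale (SE 0.24, limma adjusted p = 0.0264), Iigp1 stood at -0.83 ± 0.23 (adjusted p = 0.0197) and Igtp -0.91 ± 0.28 (adjusted p = 0.03). At an unadjusted p under 0.05, 4 genes were higher and 3 lower, against 18.7% and 16.8% of all genes. Neither these shares nor those of the calls stood above the shares of all genes. The groups overlapped for all 35, where 12.2% of all genes lay wholly higher and 11.2% wholly lower. The median over the 35 was 0.34, with 29 positive values. Herc6 entered the test through aged Hap-I western-diet hearts alone, and without it 28 of 34 values were positive, with a median of 0.34. Oas2, Irf7 and Ifi44 had positive values of 0.94 ± 0.38, 1.37 ± 0.61 and 1.07 ± 0.47 that did not pass (adjusted p = 0.0875, 0.119 and 0.115). The median was 0.05 without replicate 5 and 0.58 without replicate 2 of the aged Hap-I western-diet hearts, and without replicates 4 and 5 together it was -0.11 and 5 genes fell, Gbp2, Gbp3, Iigp1, Igtp and Bst2, against 10.1% of all genes. Without replicate 2 alone, 8 genes were called, of which Iigp1 fell and 7, Irf7 and Oas2 among them, rose, where 8.27% of all genes fell and 10.8% rose. With absent Y-linked transcripts as a covariate all 3 calls were lost and 12 other genes rose, among them Irf7, Oas2 and Ifi44, where 4.89% of all genes fell and 7.31% rose. The covariate does not vary among C57 hearts, and in the aged western-diet group it sets replicates 4 and 5 apart from the rest. These rises can thus not be told apart from the high levels of those hearts. Gbp2, Iigp1 and Igtp were then at -0.56 (adjusted p = 0.152), -0.64 (adjusted p = 0.109) and -0.66 (adjusted p = 0.158). Among the libraries with Y-linked transcripts, where replicates 4 and 5 alone stand for the group, 22 genes rose and 0 fell, where 4.33% of all genes rose and 3.14% fell, and Gbp2, Iigp1 and Igtp were at -0.41 (adjusted p = 0.372), -0.42 (adjusted p = 0.226) and -0.42 (adjusted p = 0.377).

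In aged Hap-I hearts without the diet, the same 3 GTPases fell and 0 genes rose against C57, where 4.06% of all genes fell and 7.18% rose. The log2 fold changes were -1.13 ± 0.25 for Gbp2 (limma adjusted p = 0.0133), -0.83 ± 0.24 for Iigp1 (adjusted p = 0.037) and -1.04 ± 0.29 for Igtp (adjusted p = 0.0337). The rest of the list leaned the same way, with 33 of 35 values negative and a median of -0.49, against -0.01 over all genes. At an unadjusted p under 0.05, 7 were lower and 0 higher, against 12.1% and 15.7% of all genes. In 21 of 35 genes every aged Hap-I heart lay below every C57 heart and in 0 above, against 16.1% and 18% of all genes. Bst2 (-1.01 ± 0.38), Irf9 (-0.58 ± 0.25) and Ifi35, a binding partner of Nmi (-0.50 ± 0.17), did not pass in the model of all 4 groups (adjusted p = 0.101, 0.147 and 0.0699). With only these 2 groups in the model 15 genes fell, where 10% of all genes fell and 11.2% rose. Bst2, Irf9 and Ifi35 were among them (limma adjusted p = 0.0115, 0.00913 and 0.0124). In the model of all 4 groups, the median without C57 replicate 3 was -0.28 and 0 genes were called, and without scaling, where all genes shifted by 0.13, 0 were called.

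In adult Hap-I western-diet hearts, Gbp2 and Iigp1 fell against C57 and 0 genes rose, where 1.5% of all genes fell and 1.95% rose. For Gbp2 the log2 fold change was -0.98 ± 0.25 (limma adjusted p = 0.0456), Iigp1 -1.01 ± 0.24 (adjusted p = 0.0333), and Igtp -0.97 ± 0.29, which did not pass (adjusted p = 0.0766). At an unadjusted p under 0.05, 3 genes were lower and 0 higher, against 9.82% and 10.6% of all genes, and in 5 the groups did not overlap, all lower, against 8.2% lower and 9.83% higher over all genes. The other genes were spread around 0, with 14 of 35 positive values and a median of -0.04 that was 0.10 without C57 replicate 3. Every call of a GTPase against C57 was lost without C57 replicate 3, where adjusted p ran from 0.0726 to 0.194. Without C57 replicate 1, Gbp2 and Igtp were lost in aged Hap-I western-diet hearts, Iigp1 and Igtp in aged Hap-I hearts, and Gbp2 and Iigp1 in adult Hap-I western-diet hearts. Gbp2 or Igtp was also lost in aged Hap-I western-diet hearts without their replicate 1, 2 or 3, Iigp1 and Igtp in aged Hap-I hearts without any 1 of their 4 replicates, and Gbp2 or Iigp1 in adult Hap-I western-diet hearts without their replicate 1, 2 or 3. Through the shared estimate of spread, Gbp2 in adult Hap-I western-diet hearts was lost as well without aged Hap-I western-diet replicate 1 or 3 or without any 1 aged Hap-I heart. With absent Y-linked transcripts as a covariate, Gbp2 and Iigp1 were also lost in adult Hap-I western-diet hearts (adjusted p = 0.144 and 0.114), and the 3 calls in aged Hap-I hearts passed. All of these values stayed negative.

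**Figure D4:**
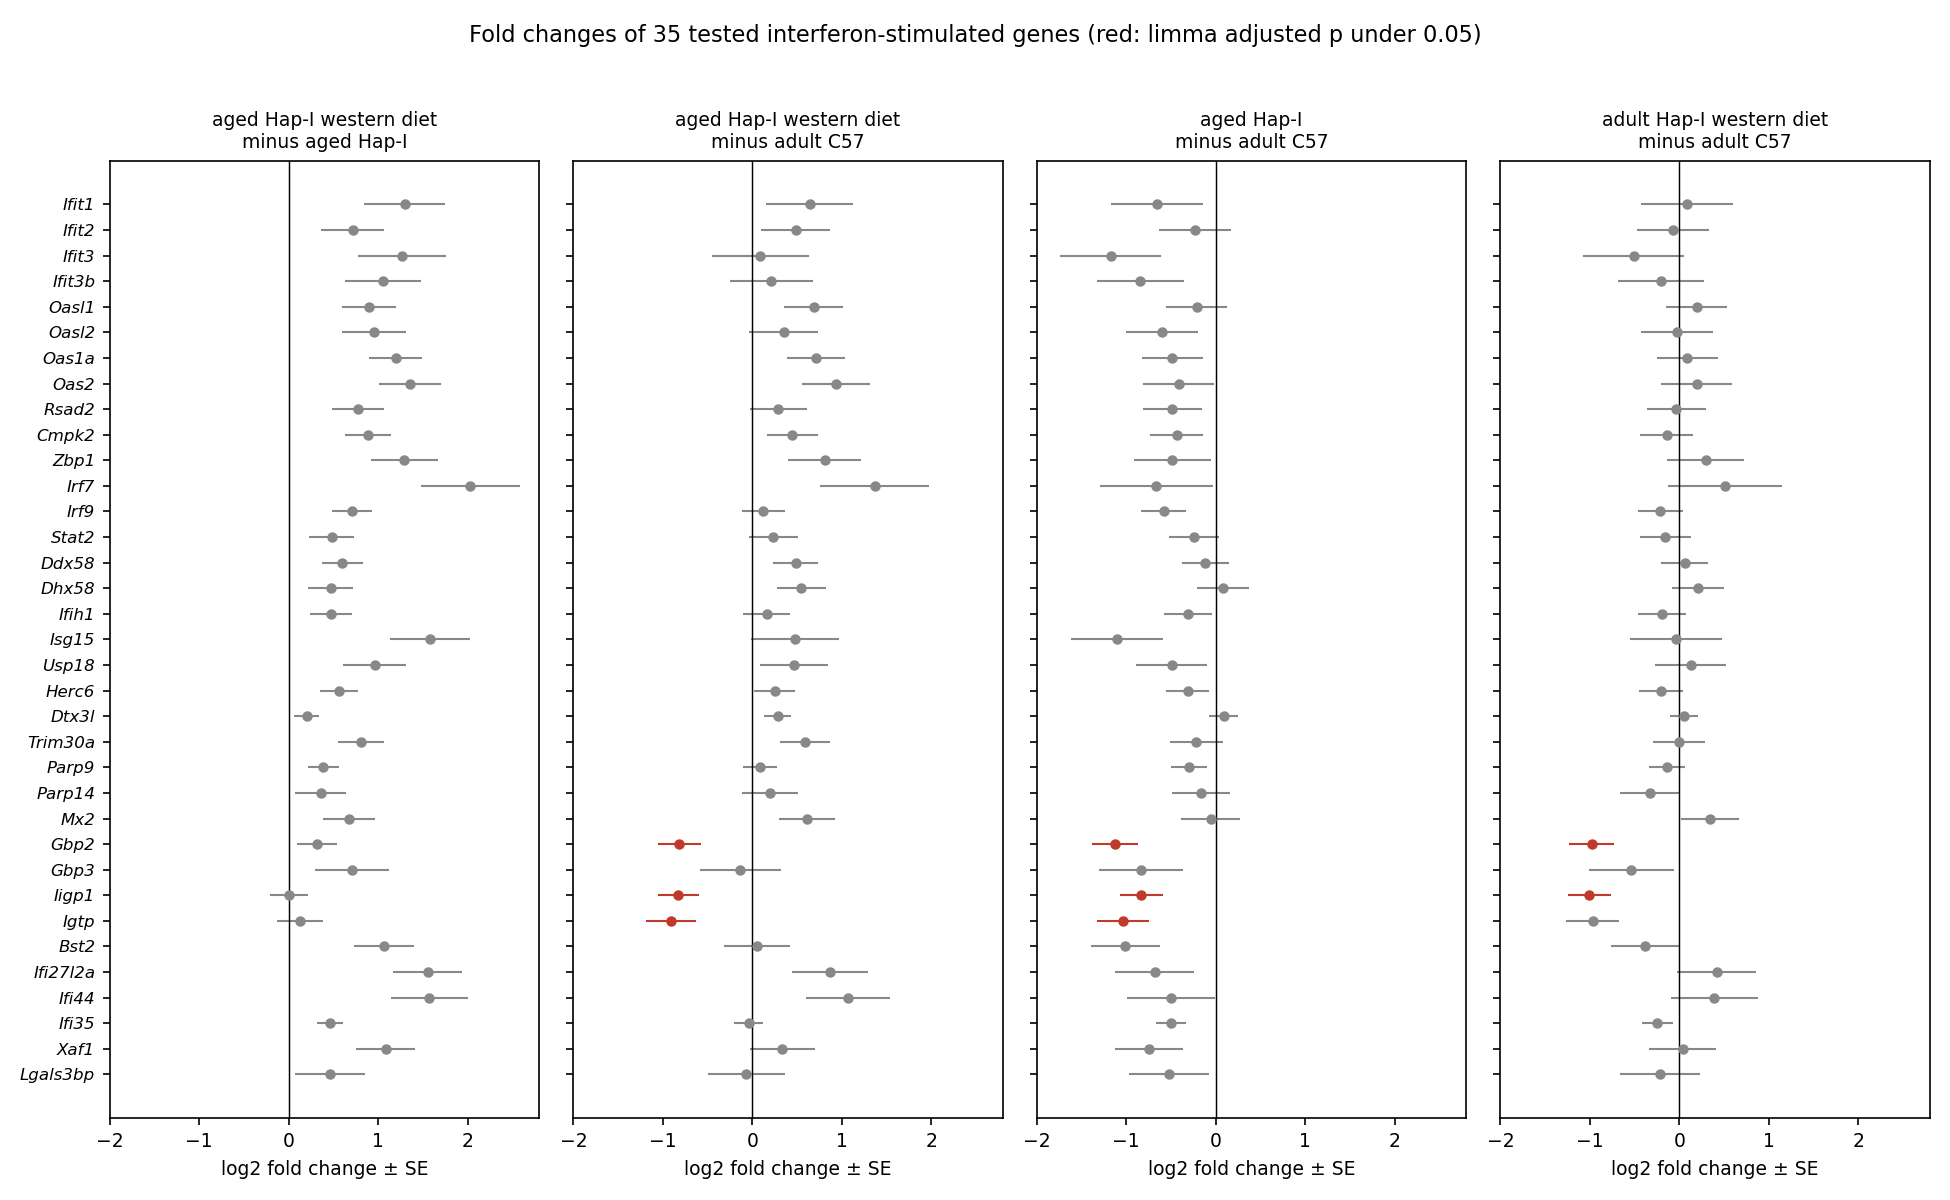
Log2 fold changes with SE (horizontal axis) of the 35 tested interferon-stimulated genes, in rows by role, for aged Hap-I western-diet against aged Hap-I hearts and for each Hap-I group against C57 hearts. Red points passed at a limma adjusted p under 0.05 and are limited to Gbp2, Iigp1 and Igtp, all lower than in C57 hearts, while every point of the first panel is grey and above 0.

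Genes of the pathway outside the list stood beside the GTPases. Irf1, the factor through which interferon gamma induces many of them, was at 9.82, 8.87, 9.14, 7.99 and 12.96 scaled TPM in aged Hap-I western-diet hearts, 10.7, 10.7, 10.02 and 10.1 in aged Hap-I hearts, 8.2, 10.7, 9.45 and 8.97 in adult Hap-I western-diet hearts and 15.5, 14.5 and 15.9 in adult C57 hearts. It fell against C57 in all 3 Hap-I groups, with log2 fold changes of -0.62 ± 0.12 in aged Hap-I western-diet hearts (limma adjusted p = 0.00266), -0.52 ± 0.12 in aged Hap-I hearts (adjusted p = 0.0163) and -0.66 ± 0.12 in adult Hap-I western-diet hearts (adjusted p = 0.0101). No Hap-I heart reached a C57 heart for Irf1, and its level in aged Hap-I western-diet replicate 5 was the highest of the Hap-I hearts. Ifngr1, a chain of the interferon gamma receptor, fell in aged Hap-I western-diet hearts (-0.58, adjusted p = 0.0175) and in aged Hap-I hearts (-0.60, adjusted p = 0.0309), and was at -0.53 in adult Hap-I western-diet hearts (adjusted p = 0.0813). Jak2, its kinase, fell in aged Hap-I western-diet hearts (-0.76, adjusted p = 0.00404) and aged Hap-I hearts (-0.62, adjusted p = 0.025). Ifngr2, the other chain of the interferon gamma receptor, overlapped with C57 hearts in each Hap-I group. Its levels were 55.8 to 85.7 scaled TPM in aged Hap-I western-diet, 51.3 to 62.9 in aged Hap-I, 45.4 to 80.9 in adult Hap-I western-diet and 47.6 to 69.5 in C57 hearts. Ifnar2 fell in aged Hap-I western-diet hearts against C57 (-0.41, adjusted p = 0.00356) and against adult Hap-I western-diet hearts (-0.31, adjusted p = 0.0426). Ifnar1, the other chain of the type I receptor, passed in none of the 6 comparisons. Of the 12 tested ligand, receptor and signalling genes, 5 fell and 1 rose in aged Hap-I western-diet hearts, 3 fell in aged Hap-I hearts and 1, Irf1, fell in adult Hap-I western-diet hearts, each against C57. Over all genes 9.57% fell and 12.3% rose in the first of these comparisons, 4.06% fell in the second and 1.5% in the third. The others in aged Hap-I western-diet hearts were Irf3, which carries the first wave of interferon induction and fell (-0.58, adjusted p = 0.00828), and Irf5, a factor of macrophage activation, which rose (0.43, adjusted p = 0.038).

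Sums of fibroblast markers were below those of C57 hearts in every Hap-I heart. Sums of endothelial markers overlapped with C57 in aged and adult Hap-I western-diet hearts. Endothelial markers summed to 791 to 1111 scaled TPM in aged Hap-I western-diet hearts, 852 to 965 in aged Hap-I hearts, 1027 to 1309 in adult Hap-I western-diet hearts and 1091 to 1335 in C57 hearts. Fibroblast markers summed to 204 to 349, 287 to 366, 233 to 348 and 390.0 to 436 scaled TPM in the same order of groups. Fabp4 and Cd36 made up most of the endothelial sums and Dcn most of the fibroblast sums. In aged Hap-I western-diet hearts Kdr stood at 37.4, 10.6, 13.3, 9.18 and 41.2 scaled TPM. Cdh5 stood there at 37.9, 13.7, 19.5, 17.3 and 48.1. Replicate 5 was the highest of that group for both and for Pecam1, Tie1, Emcn, Cd36 and Egfl7, but not for Tek or Fabp4. Of the 9 tested endothelial markers Fabp4 fell in aged Hap-I western-diet and in aged Hap-I hearts against C57, and of the 7 tested fibroblast markers Dcn fell in aged Hap-I western-diet hearts. The part of these cells in the levels of the GTPases or of the other interferon-stimulated genes was not tested. Atrial markers summed to 86.1 to 199 scaled TPM in aged Hap-I western-diet hearts, 97.1 to 5082 in aged Hap-I hearts, 33.9 to 1173 in adult Hap-I western-diet hearts and 230.2 to 6779 in C57 hearts, 4 of the 5 tested fell in aged Hap-I western-diet hearts against C57. Their part was not tested either. T and NK cells are the usual source of interferon gamma, and 1 of their 12 listed markers passed the filter. The 12 summed to 2.87 to 5.34 scaled TPM in aged Hap-I western-diet hearts and 2.41 to 3.54 in aged Hap-I hearts. In adult Hap-I western-diet hearts they summed to 2.42 to 8.28 and in C57 hearts to 1.73 to 4.32. The part of T and NK cells was not tested.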

How the data were processed

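RNA of 16 mouse hearts was extracted with a Qiagen column kit and sequenced from TruSeq stranded libraries after a polyadenylated RNA pull-down, per the labels' protocols. Per the file headers, the authors deposited TPM, length-corrected transcript abundances, in 1 table of Ensembl genes by library. The tools kallisto and DESeq2 and the build GRCm38 are named without versions, per the submitters' processing notes. kallisto matches 31-base words and divides reads that fit several genes by an estimate, so shared words are given for uncertain genes (GENCODE M21). TPM rescale each library to a fixed total (942090 to 959772 here), so depth cannot be recovered and no count test was used.

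Genes reaching 1 TPM in 3 or more libraries were tested. Scaled TPM are TPM over median-of-ratios size factors (0.678 to 1.231). limma 3.58.1 (R 4.3.3) was fitted to log2(scaled TPM + 1), a pseudocount of 1, with a mean per group and a variance trend over all 16 libraries. Two-sided p-values were Benjamini-Hochberg adjusted over 11415 genes within each of 6 comparisons. The fit was tested on simulated data. Fold changes with errors were given for up to 6 genes of smallest p per comparison among those with an unadjusted p under 0.05. The 38 genes, the other gene lists and the rules were chosen with earlier results of these data known. Alternatives were other scalings, pseudocounts, filters, library weights, a covariate for absent Y-linked transcripts, fewer libraries, and each library left out in turn. A correction for transcript length and fits without aged Hap-I western-diet replicates 4 and 5 or of only the libraries without Y-linked transcripts were added after the data were seen. Sting1, Gbp5 and Gbp6 of the other lists were not analysed here. A member of the signalling list is counted but not reported here. P-values measure the spread between the animals sampled.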

Additional observations from a re-analysis of the deposited data

Results flagged for a closer look

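Within groups of 4 or 5 hearts, single hearts stood far from the rest of their group for 12 of 117 sets of values (10.3%). The gap to the nearest heart was compared with the group's whole range by Dixon's criterion. By chance 5% of independent sets would be flagged, but these sets are not independent, since the same hearts were high for many genes. Aged Hap-I western-diet replicate 5 accounted for 7 of the 12, all high. In scaled TPM, it stood at 14.5 for Oas2, against 1.61 to 3.91 in the other 4 hearts, and at 9.80 for Stat2, against 2.21 to 3.54. It stood at 11.2 for Ddx58, against 3.30 to 4.65, at 3.28 for Herc6, against 0.472 to 1.09, and at 5.24 for Mx2, against 0.676 to 1.54. It stood at 16.3 for Gbp2, against 5.01 to 7.61, and at 0.721 for Rtp4, against 0 to 0.119.

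In aged Hap-I hearts, replicate 4 stood high for Ifit2 at 3.99, against 2.83 to 3.03 in the other 3, and for Cmpk2 at 1.93, against 1.77 to 1.80. Replicate 3 stood high for Dtx3l at 3.05, against 2.68 to 2.72, and for Rtp4 at 0.102, where the other 3 were listed at 0. In adult Hap-I western-diet hearts, replicate 4 stood at 29.4 for Lgals3bp, against 12.2 to 14.6 in the other 3. Irf7 was not among these sets, since aged Hap-I western-diet replicates 4 and 5 were both high for it.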

How the results depend on the processing

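Of the values for named genes 629 kept their side of the threshold, 47 newly passed, 63 no longer passed and none changed sign. Of the medians and numbers of genes called, 281 stayed close to the value reported and 51 moved. Numbers of genes called are given in the order aged Hap-I western-diet against aged Hap-I, against adult Hap-I western-diet and against C57. They were 12, 0 and 12 with a covariate for absent Y-linked transcripts, 23, 2 and 22 in libraries with Y-linked transcripts and 4, 1 and 4 with library weights. Over all genes, in the same order, the covariate gave 0.298% higher and 0.0876% lower, 1.2% and 0.499%, and 7.31% and 4.89%. The libraries with Y-linked transcripts gave 0.937% and 0.289%, 0.0613% and 0.0438%, and 4.33% and 3.14%. Library weights gave 1.37% and 1.4%, 8% and 5.19%, and 17.2% and 15.5%. The median log2 fold changes were 1.26, 0.49 and 0.88 with that covariate and 1.54, 1.10 and 1.12 in those libraries, and without aged Hap-I western-diet replicates 4 and 5 the second was -0.0921 and the third -0.11, both of the other sign. With the covariate, all 12 calls against C57 were higher, and Gbp2, Iigp1 and Igtp, the genes called lower, were lost. Against C57, aged Hap-I western-diet hearts had 1 gene called without scaling, 0 with only these groups in the model and 5 without replicates 4 and 5. Over all genes 2.91%, 4.95% and 10.1% were then called lower and 2.47%, 7.1% and 12.9% higher. Aged Hap-I against adult Hap-I western-diet hearts had 4 with library weights and 6 with only these groups. All were lower, where 12.3% and 1.48% of all genes were called lower and 14.4% and 2.22% higher. Aged Hap-I against C57 hearts had 0 without scaling, 1 without a filter, 11 with library weights, 15 with only these groups and 10 in libraries with Y-linked transcripts. All of these calls were lower. Over all genes 0.184%, 1.62%, 14.5%, 10% and 4.64% were called lower and 1.79%, 2.58%, 17.1%, 11.2% and 6.95% higher. Adult Hap-I western-diet against C57 hearts had 1 without scaling, under quantile normalization, with only these groups and in libraries with Y-linked transcripts, and 0 without a filter or with the covariate. In this order 0.823%, 1.34%, 0.289%, 0.289%, 0.582% and 0.517% of all genes were called lower. The shares called higher were 0.21%, 1.94%, 0.307%, 0.315%, 0.676% and 0.701%. On leaving out 1 library, the number called ran from 0 to 1 for aged Hap-I western-diet against aged Hap-I hearts, and from 0 to 8, 0 to 6 and 0 to 3 for aged Hap-I western-diet, aged Hap-I and adult Hap-I western-diet hearts against C57. These highest numbers came without aged Hap-I western-diet replicate 5, 2, 5 and 2 in turn. There 0.394%, 10.8%, 8.14% and 1.97% of all genes were called higher and 0.412%, 8.27%, 4.68% and 1.61% lower. The cause of these differences was not tested. Correction for transcript length left the numbers called at 0, 0, 0, 3, 3 and 2. In the comparisons with C57, 9.98%, 4.09% and 1.81% of all genes were then called lower. Without scaling, the median of all genes moved by -0.16, 0.11, 0.27, -0.03, 0.13 and -0.13 in the 6 comparisons. No paired analysis was possible because the labels give no replicate numbers that groups share. Unknown depth, 3 to 5 hearts a group, unlabelled sex and the diet label of the adult Hap-I group limit all values.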

Other observations

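A second list of interferon-induced genes, outside the 38, had 27 genes tested, among them antigen presentation genes, further guanylate-binding proteins and Tgtp1. In aged Hap-I western-diet against aged Hap-I hearts all 27 had positive log2 fold changes with a median of 0.49, and 0 were called in limma, with 14 higher and 0 lower at an unadjusted p under 0.05, against 7.81% and 8.1% of all genes. Within aged Hap-I western-diet hearts, replicate 5 was the highest for 25 of the 27, against 23.5% of all genes, and C57 replicate 3 was the highest of its group for 24, against 31.6%. Ifi204, a sensor of DNA that shares 34.6% of its 31-base words, was at 3.63, 2.301, 3.03, 5.49 and 9.48 scaled TPM in aged Hap-I western-diet hearts, 1.57, 1.93, 2.11 and 1.54 in aged Hap-I hearts, 1.81, 3.07, 2.73 and 4.83 in adult Hap-I western-diet hearts and 2.74, 2.68 and 4.53 in adult C57 hearts.

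Against C57, 3 of the 27 fell in aged Hap-I hearts, where 4.06% of all genes fell and 7.18% rose. Tgtp1, a T-cell-specific GTPase with 84.4% of its words shared, mostly with Tgtp2, fell (-1.42 on the log2 scale, limma adjusted p = 0.0384). Irgm2, a regulator of the immunity-related GTPases, fell in aged Hap-I hearts (-0.91, adjusted p = 0.0321) and in adult Hap-I western-diet hearts (-0.97, adjusted p = 0.0463). Psmb8, a subunit of the immunoproteasome, fell in aged Hap-I hearts (-0.68, adjusted p = 0.035). None of the 27 passed in aged Hap-I western-diet hearts against C57. The nucleic acid sensors and adaptors outside the list had 8 genes tested and 0 called in limma in each of the 6 comparisons, with at most 2 higher and 1 lower at an unadjusted p under 0.05.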
